A study of Mus musculus with 24 samples.

Results

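The GABAergic interneuron lineage of the cerebellum was followed through 9 genes, *Pax2*, *Ptf1a*, *Gad1*, *Gad2*, *Slc32a1*, *Pax8*, *Pvalb*, *Npy* and *Sst*, out of 22180 genes that had a probe set of their own on the array. The members were given by name, and each was read from the probe set annotated to it alone, taking the one with the highest mean where there were several. All 9 had such a probe set, and *Ptf1a* and *Slc32a1* had 2 each. Tumors of 2 genotypes were compared, both carrying the oncogenic *SmoM2* allele in C57BL/6 mice and both harvested untreated at P15. In *G-Smo* mice *SmoM2* is switched on by *hGFAP-Cre*, which acts in the neural stem cells that form the cerebellum among other brain regions, and in *M-Smo* mice by *Math1-Cre*, which acts in the precursors of cerebellar granule neurons. Each group held 6 tumors, with 1 Affymetrix Mouse Gene 2.1 ST array per tumor. A further 12 arrays, from tumors of both genotypes taken 2 h after 10 Gy of xRT, gave values for 0 of the 9 genes.

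Cerebellar GABAergic neurons arise in the ventricular zone (VZ) of the fourth ventricle, where the transcription factor Ptf1a sets the GABAergic fate, while granule neurons and other glutamatergic neurons arise in the rhombic lip under Math1. Interneuron precursors leaving the VZ switch on Pax2, go on dividing in the white matter after birth and settle as Golgi, basket and stellate cells. Mature cells make GABA with the enzymes of *Gad1* and *Gad2*, pack it into vesicles with the transporter of *Slc32a1*, and in part carry parvalbumin or a neuropeptide. According to the paper, *SmoM2* in *G-Smo* mice is also active in GABAergic interneurons and progenitors that come from the VZ. *Math1-Cre* acts in the lineage of the rhombic lip. Most tumor cells of both genotypes belong to the granule neuron lineage, and the paper also traced some astrocytes and oligodendrocytes to the tumor lineage. A dissected tumor can also hold interneurons of the cerebellum around it. In such bulk samples, fewer cells of a type and less RNA per cell cannot be told apart.

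The promoters of *Pax2*, *Npy* and *Sst*, the members called with all tumors or without *M-Smo* replicate 1, are shown because they mark where these transcripts start and which regulatory letters lie there. Sequences are those of RefSeq on GRCm38.p6, from 250 bases before to 50 after a start site, printed 5′ to 3′ on the strand of the gene, and the table held 12 promoters of the 9 members. The first is the middle one of 3 *Pax2* start sites (chr19:44755502-44755801, plus strand), the only promoter of a member that held the E-box marked below. The arrays do not show which start the tumors used. The others are the single promoters of *Npy* (chr6:49822460-49822759, plus strand) and *Sst* (chr16:23890795-23891094, minus strand).
*Pax2*: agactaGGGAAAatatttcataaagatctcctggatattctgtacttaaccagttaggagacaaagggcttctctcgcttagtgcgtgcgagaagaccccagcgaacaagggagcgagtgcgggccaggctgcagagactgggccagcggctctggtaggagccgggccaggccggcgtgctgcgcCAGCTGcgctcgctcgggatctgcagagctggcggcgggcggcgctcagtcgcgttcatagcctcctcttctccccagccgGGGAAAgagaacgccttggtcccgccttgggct
*Npy*: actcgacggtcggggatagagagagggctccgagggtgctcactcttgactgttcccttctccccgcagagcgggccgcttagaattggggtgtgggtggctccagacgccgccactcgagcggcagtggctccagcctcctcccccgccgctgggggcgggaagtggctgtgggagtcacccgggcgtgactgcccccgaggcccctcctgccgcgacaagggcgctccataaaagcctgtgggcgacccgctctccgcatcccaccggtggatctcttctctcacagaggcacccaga
*Sst*: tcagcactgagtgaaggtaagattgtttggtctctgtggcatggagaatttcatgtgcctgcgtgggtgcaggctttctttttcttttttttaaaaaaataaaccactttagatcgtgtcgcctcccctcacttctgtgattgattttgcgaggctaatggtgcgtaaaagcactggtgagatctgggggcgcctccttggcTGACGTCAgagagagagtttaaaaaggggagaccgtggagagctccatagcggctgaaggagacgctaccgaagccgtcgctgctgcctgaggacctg
Capitals mark 3 motifs that were searched on both strands and do not overlap, namely the E-box CAGCTG and the TC-box TTTCCC, which can be bound by the complex that contains the Ptf1a protein, and the cAMP response element TGACGTCA. In *Pax2* the E-box begins 64 bases before the start, and TC-boxes, read there on the opposite strand as GGGAAA, begin 244 bases before it and at base 18 of the transcript. Such letters are common, since 16.3% of 32851 promoters in the table held this E-box and 25.2% this TC-box. The E-box was in 1 of the 12 member promoters and the TC-box in 4, which belong to *Pax2*, *Gad2* and *Pvalb*. The *Npy* window held none of the 3 motifs. In *Sst* the cAMP response element, found in 1.79% of all promoters and in no other member, begins 48 bases before the start. A match is a description of the letters only.

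All 9 genes had a lower mean in *G-Smo* than in *M-Smo* tumors, and 2 of them, *Pax2* and *Npy*, were lower at an adjusted p under 0.05 from limma, adjusted by Benjamini-Hochberg over 41345 probe sets. None was higher, and 7 did not pass the threshold. Over all probe sets 1.29% were called lower and 1.27% higher, and over genes with a probe set of their own 1.89% were called lower and 1.16% higher. A difference below 0 was found for 49.0% of all probe sets and 53.6% of genes. The median log2 difference (*G-Smo* minus *M-Smo*, as throughout) of the 9 was -0.58, a 1.50-fold lower intensity, beside 0.00347 over all probe sets and -0.01 over genes. In 4 of the 9, *Pax2*, *Gad2*, *Npy* and *Sst*, every *G-Smo* tumor lay below every *M-Smo* tumor, as was the case for 1.57% of all probe sets and 2.43% of genes. At an unadjusted p under 0.05, 8 of the 9 were lower, beside 8.65% of all probe sets. The members were chosen with earlier results of these data known, so these counts and shares are a description and not a test.

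The array medians lay between 6.38 and 6.42 in the 12 tumors. A number of tumors stood apart in these genes. *M-Smo* replicate 1 had the highest value of its group in 6 of the 9, and its mean over the members was 7.54, where the rest of the *M-Smo* group lay at 6.79 to 6.99. *G-Smo* replicates 3 and 5 had the lowest means over the members, 6.21 and 6.24, where the rest of the *G-Smo* group lay at 6.46 to 6.58. The members' differences are therefore also given without *M-Smo* replicate 1, and so are the calls of other named genes that this tumor decides. The labels do not say whether tumors shared a litter, so p-values measure the spread between these tumors.

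**Figure D1:**
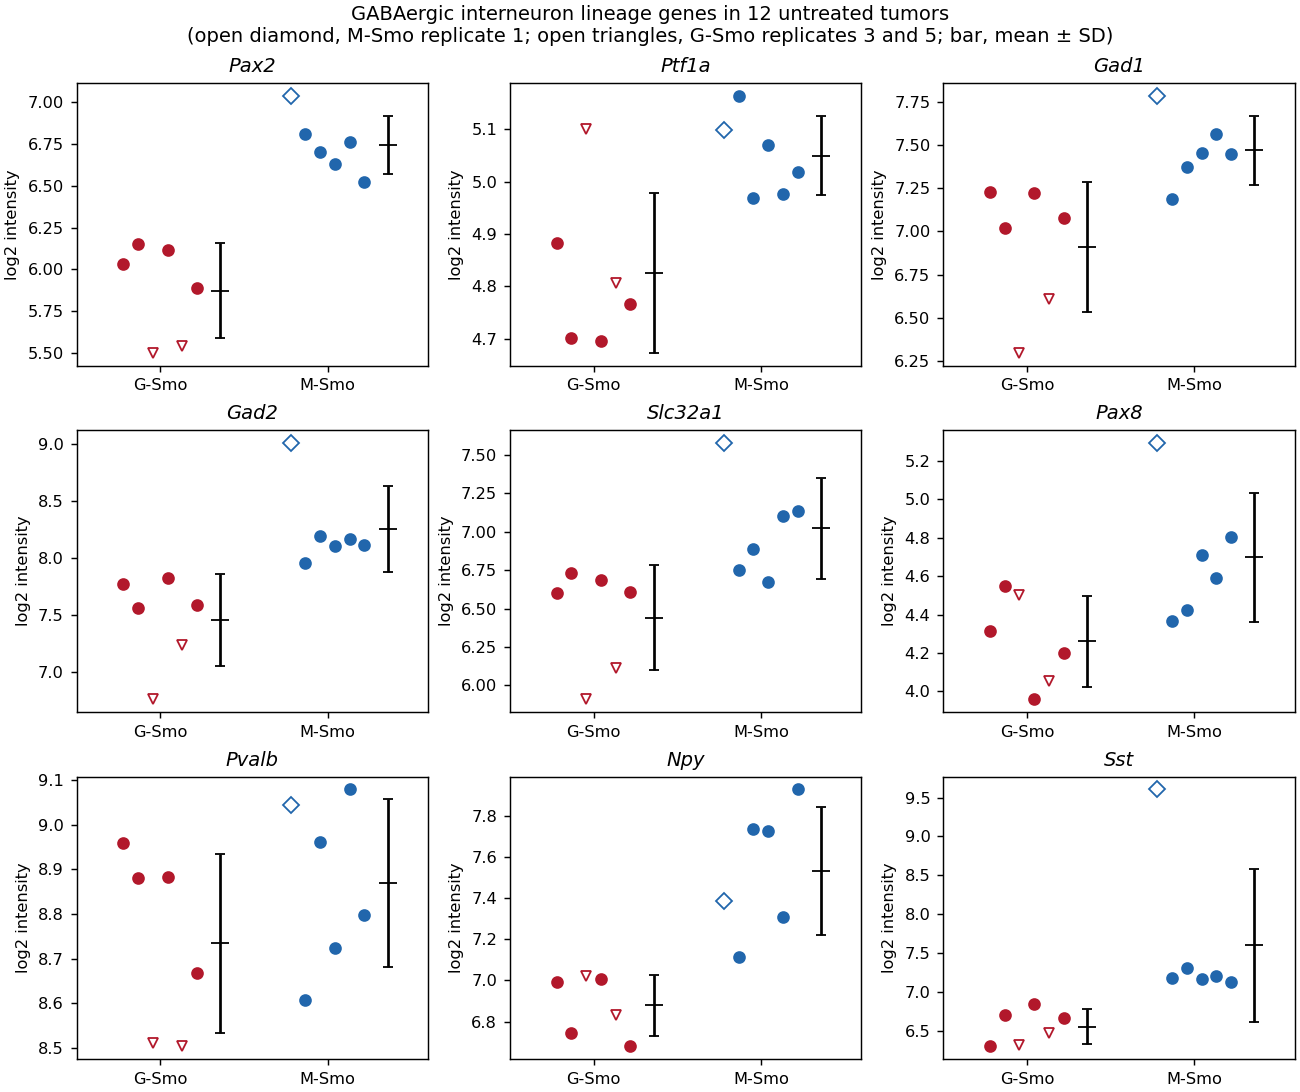
Log2 intensity of each of the 9 genes (one panel each, axes differ in range) in 6 *G-Smo* tumors (red) and 6 *M-Smo* tumors (blue), with the mean ± SD beside each group. Open symbols mark *M-Smo* replicate 1 and *G-Smo* replicates 3 and 5, and the groups do not overlap for *Pax2*, *Gad2*, *Npy* and *Sst*.

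*Pax2*, the transcription factor that marks interneuron precursors from the time they leave the VZ, had log2 intensities of 6.03, 6.15, 5.50, 6.12, 5.54 and 5.89 in *G-Smo* tumors 1 to 6. In *M-Smo* tumors 1 to 6 the values were 7.04, 6.81, 6.70, 6.63, 6.76 and 6.53. The groups were 0.37 apart at their nearest tumors, with *G-Smo* replicates 3 and 5 at the bottom and *M-Smo* replicate 1 at the top. Means were 5.87 ± 0.29 and 6.75 ± 0.18 (SD, n = 6 each), and *Pax2* was lower in *G-Smo* tumors by a log2 difference of -0.87 (standard error 0.13, 95% confidence interval -1.15 to -0.60), a fold of 1.83 (limma, adjusted p = 0.00668). The difference was -0.81 without *M-Smo* replicate 1 (adjusted p = 0.0134). It passed with each of the 12 tumors left out in turn, at -0.93 to -0.80 (limma, highest adjusted p = 0.0183). Without *G-Smo* replicates 3 and 5 it was -0.70 (adjusted p = 0.0220), where 0.121% of all probe sets were called lower.

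*Ptf1a*, the factor that acts before *Pax2* in the VZ, is needed for the GABAergic fate of cerebellar neurons. The *G-Smo* tumors ran from a log2 intensity of 4.70 through a median of 4.79 to 5.10, the *M-Smo* tumors from 4.97 through 5.04 to 5.16. The groups overlapped through *G-Smo* replicate 3, which was the lowest tumor for *Gad1*, *Gad2* and *Slc32a1* and the highest *G-Smo* tumor for *Ptf1a*. The difference of -0.22 (95% confidence interval -0.38 to -0.07) did not pass (limma, adjusted p = 0.124, and -0.21 with adjusted p = 0.183 without *M-Smo* replicate 1). With each of the 12 tumors left out in turn, it passed only without *G-Smo* replicate 3 (limma, adjusted p = 0.0478). The second *Ptf1a* probe set differed by -0.07 (adjusted p = 0.665). *Pax8*, a relative of *Pax2* that is also made in the hindbrain, had a lowest, median and highest value of 3.96, 4.26 and 4.55 among *G-Smo* tumors and of 4.37, 4.65 and 5.30 among *M-Smo* tumors, the last being *M-Smo* replicate 1. Its difference was -0.44 (adjusted p = 0.150), and -0.32 without that tumor (adjusted p = 0.203). The deposited values carry no detection calls, so it is not known whether *Ptf1a* and *Pax8* lay above background.

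*Gad2*, which encodes the GABA-making enzyme of nerve endings, had log2 intensities of 7.77, 7.56, 6.76, 7.83, 7.24 and 7.60 in *G-Smo* tumors 1 to 6. In *M-Smo* tumors 1 to 6 they were 9.01, 7.96, 8.19, 8.11, 8.17 and 8.12. The groups were 0.13 apart at their nearest, and the 5 *M-Smo* tumors other than replicate 1 lay close together. The means of 7.46 ± 0.40 and 8.26 ± 0.38 (SD, n = 6 each) differed by -0.80 (standard error 0.20, 95% confidence interval -1.24 to -0.36), a fold of 1.74 that did not pass (limma, adjusted p = 0.0591). With *M-Smo* replicate 1 left out it was -0.65 (adjusted p = 0.0741). It passed under 4 of the other settings tried, among them a filter on dim probe sets (adjusted p = 0.0349).

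*Gad1* encodes the other GABA-making enzyme, which makes most of the GABA in the brain. Its lowest, median and highest log2 intensities were 6.30, 7.05 and 7.23 among *G-Smo* tumors and 7.19, 7.45 and 7.78 among *M-Smo* tumors, with *M-Smo* replicate 2 below 2 of the *G-Smo* tumors. The difference was -0.56 (95% confidence interval -0.90 to -0.21, limma, adjusted p = 0.0849), and -0.50 without *M-Smo* replicate 1 (adjusted p = 0.141). *Slc32a1*, the vesicular transporter of GABA and glycine, had 5.91, 6.61 and 6.73 in the same order among *G-Smo* tumors and 6.67, 6.99 and 7.58 among *M-Smo* tumors, 1 of which (replicate 4) lay within the *G-Smo* range, and its difference was -0.58 (adjusted p = 0.104), and -0.47 without *M-Smo* replicate 1 (adjusted p = 0.156). Its second, dimmer probe set differed by -0.06 (adjusted p = 0.758). Without *G-Smo* replicates 3 and 5, the differences of *Gad1* and *Slc32a1* were -0.33 and -0.36. None of the 3 genes of GABA synthesis and packing passed, with or without *M-Smo* replicate 1.

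*Pvalb* encodes the calcium buffer parvalbumin of basket and stellate cells, and Purkinje cells make it too. The *G-Smo* tumors ran from 8.50 through a median of 8.77 to 8.96, the *M-Smo* tumors from 8.61 through 8.88 to 9.08, so that most tumors of both groups shared one range. The difference was -0.13 (95% confidence interval -0.37 to 0.098, limma, adjusted p = 0.538), the smallest of the 9. It was -0.10 without *M-Smo* replicate 1 (adjusted p = 0.685) and -0.02 without *G-Smo* replicates 3 and 5.

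*Npy*, which encodes neuropeptide Y, a peptide of many GABAergic neurons, had log2 intensities of 6.99, 6.74, 7.02, 7.00, 6.83 and 6.68 in *G-Smo* tumors 1 to 6. In *M-Smo* tumors 1 to 6 the values were 7.39, 7.11, 7.74, 7.73, 7.31 and 7.93. No tumors overlapped, although the gap was only 0.0900, *M-Smo* replicate 1 lay within its group and *G-Smo* replicate 3 was the highest of its own. Means were 6.88 ± 0.15 and 7.53 ± 0.31 (SD, n = 6 each), and *Npy* was lower in *G-Smo* tumors by -0.65 (standard error 0.13, 95% confidence interval -0.94 to -0.37), a fold of 1.57 (limma, adjusted p = 0.0247). Leaving out *M-Smo* replicate 1 gave -0.68 (adjusted p = 0.0373). The call was lost without *G-Smo* replicate 2, 5 or 6, at differences of -0.63, -0.64 and -0.61 (limma, adjusted p = 0.0532, 0.0611 and 0.0588), and without *G-Smo* replicates 3 and 5 together, at -0.68 (adjusted p = 0.112).

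*Sst*, which encodes the inhibitory peptide somatostatin, had log2 intensities of 6.30, 6.70, 6.32, 6.85, 6.47 and 6.66 in *G-Smo* tumors 1 to 6. In *M-Smo* tumors 1 to 6 they were 9.61, 7.18, 7.31, 7.16, 7.20 and 7.13. Every *G-Smo* tumor lay below every *M-Smo* tumor, with a gap of 0.29, while *M-Smo* replicate 1 stood far above the other 5. With it, the means of 6.55 ± 0.22 and 7.60 ± 0.99 (SD, n = 6 each) differed by -1.05 (standard error 0.37, 95% confidence interval -1.85 to -0.25), which did not pass (limma, adjusted p = 0.149). Without it, *Sst* was lower in *G-Smo* tumors by -0.65 (standard error 0.10, 95% confidence interval -0.87 to -0.43), a fold of 1.57 (adjusted p = 0.0134). A single tumor thus set both the size of the difference and the side of the threshold.

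**Figure D2:**
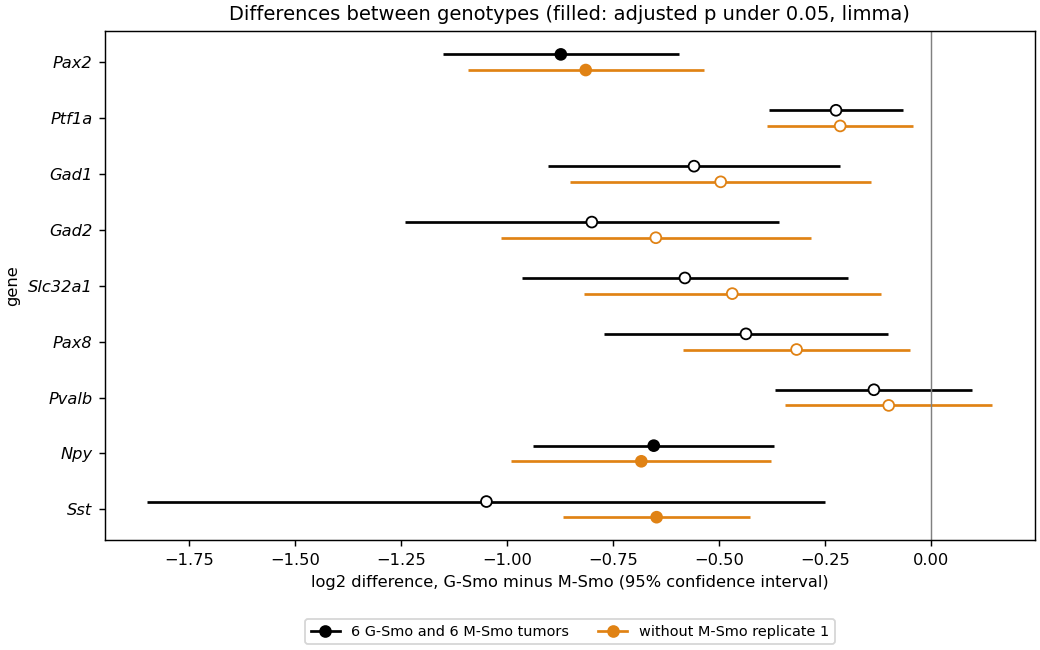
Log2 difference of each gene (*G-Smo* minus *M-Smo*, horizontal axis) with its 95% confidence interval from limma, over all 12 tumors (black) and without *M-Smo* replicate 1 (orange), where filled points passed an adjusted p of 0.05. *Pax2* and *Npy* passed in both, *Sst* only without that tumor, at -0.65 in place of -1.05, and the interval of *Pvalb* holds 0.

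Without *M-Smo* replicate 1, all 9 genes still had the lower mean in *G-Smo* tumors, and the median difference was -0.50, beside 0.0015 over all probe sets. There, 3 of the 9 were called lower (*Pax2*, *Npy* and *Sst*), where 0.946% of all probe sets were, and the same 4 did not overlap, where 2.00% of all probe sets did not. Without *G-Smo* replicates 3 and 5, a choice made after their values were seen, 1 was called (*Pax2*), where 0.121% of all probe sets were called lower. There, 5 members did not overlap, *Ptf1a* being the addition, where 2.21% of all probe sets did not.

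Within a genotype, the genes did not all vary together. After each gene was centred on its genotype mean, the correlation over the 12 tumors was 0.91 for *Gad1* with *Gad2*, 0.88 for *Gad1* with *Slc32a1* and 0.90 for *Gad2* with *Slc32a1*. *Pax2* went with these 3 at 0.80 to 0.82, and *Gad1* with *Pvalb* at 0.81. The pair *Gad1* and *Gad2* stood at 0.97 without *M-Smo* replicate 1. *Ptf1a* ran the other way, with -0.62 against *Gad1*, -0.48 against *Gad2* and -0.54 against *Slc32a1*, and with -0.73, -0.78 and -0.77 without that tumor. *Ptf1a* with *Sst* went from -0.04 to -0.78 when it was left out. *Npy* was close to 0 with *Gad1* (-0.04), and *Sst* with *Gad2* went from 0.75 to 0.54 without *M-Smo* replicate 1. Over all 36 pairs the median correlation was 0.30, and 0.07 without that tumor. The points are tumors that share their arrays among all genes, and the values are a description.

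Of 18978 protein-coding genes, those whose tumor-to-tumor deviations within genotype were most like the mean of the 9 members were, over 12 tumors, *Tmem255a* (Pearson r 0.979, Spearman rho 0.972), *Cend1* (0.969 and 0.937), *Scn4b* (0.963 and 0.930), *Pld3* (0.961 and 0.923) and *Nefh* (0.960 and 0.902). *Cend1* encodes a neuronal protein of cell cycle exit, *Scn4b* a sodium channel subunit and *Nefh* the heavy neurofilament chain. Over the 11 tumors without *M-Smo* replicate 1 they were *Far2* (0.969 and 0.936), *Kcnip4* (0.961 and 0.891), *Zfp729a* (0.961 and 0.982), *Tmem255a* (0.958 and 0.991) and *Kcnip1* (0.954 and 0.891). Only *Tmem255a* was among the 5 in both, and its own difference between genotypes was -0.21 (limma, adjusted p = 0.577).

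Genes that specify GABAergic neurons in the VZ and hindbrain were read as a list, of which 18 of 19 were measured. Of the 18, 3 are members (*Pax2*, *Ptf1a* and *Pax8*). With *Pax2*, 4 passed, all of them lower in *G-Smo* tumors, and 14 missed the threshold. The list median was -0.25, and -0.21 over the 15 genes that are not members. At an unadjusted p under 0.05, 9 were lower (6 of them not members) and 1 was higher, namely *Pax3* (difference 0.25, limma, adjusted p = 0.218), a factor also made in GABAergic precursors. *Lhx1* (0.07) and *Tal1* (0.10) also had the higher mean in *G-Smo* tumors, and these 3 were named after their values were seen. *Tfap2a* and *Tfap2b* encode AP-2 factors that act after Ptf1a in GABAergic precursors. *Tfap2a* lay at 5.58 to 6.55 among *G-Smo* tumors, below the 7.03 to 7.40 of the *M-Smo* tumors, and was lower by -1.02 (limma, adjusted p = 0.00403), with or without *M-Smo* replicate 1 (-0.99 without it, adjusted p = 0.0118). *Tfap2b* was lower by -0.92 (adjusted p = 0.0263), a call lost without that tumor, at -0.85 (adjusted p = 0.0508). *Lbx1*, a homeobox factor of hindbrain and spinal GABAergic neurons, was lower by -0.61 (adjusted p = 0.0199, and 0.0315 without that tumor). In all 3 every *G-Smo* tumor lay below every *M-Smo* tumor. Without *M-Smo* replicate 1 the list had 3 calls, where 0.946% of all probe sets were called lower. It had 2 without *G-Smo* replicates 3 and 5, where 0.121% were.

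Of 12 listed genes of maturing cerebellar interneurons, all were measured, all had the lower mean in *G-Smo* tumors, 5 were lower at the threshold and 7 did not pass, with a median of -0.42. *Kit*, the receptor of basket and stellate cells, lay at 8.50 to 8.86 among *G-Smo* tumors and at 8.94 to 9.39 among *M-Smo* tumors, without overlap, and was lower by -0.56 (limma, adjusted p = 0.00945). *Nos1*, the neuronal nitric oxide synthase of these cells, was lower by -0.56 (adjusted p = 0.0342). *Lypd6*, a modulator of nicotinic receptors, was lower by -0.46 (adjusted p = 0.0370), and *Grm2*, the glutamate receptor of Golgi cells, by -0.44 (adjusted p = 0.0398). *Tfap2b* was the other of the 5. Of this list only *Kit* was still called without *M-Smo* replicate 1 (adjusted p = 0.0220), and none was without *G-Smo* replicates 3 and 5 (6 at an unadjusted p under 0.05, limma), where 0.121% of all probe sets were called lower. The mean of the 11 genes other than *Pvalb* lay at 7.38 to 7.74 among *G-Smo* tumors and 7.82 to 8.52 among *M-Smo* tumors, the highest being replicate 1.

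Of 10 genes of GABA and glycine synthesis, packing, uptake and breakdown, 8 were measured. Of these, 3 are members (*Gad1*, *Gad2* and *Slc32a1*). The median was -0.57 over the 8 and -0.26 over the 5 that are not members. All 8 had the lower mean in *G-Smo* tumors and 1 passed. That gene was *Slc6a13*, a GABA transporter found mainly in the meninges, whose highest *G-Smo* tumor (7.87) lay below its lowest *M-Smo* tumor (8.45), at a difference of -1.08 (limma, adjusted p = 0.000377, and 0.00167 without *M-Smo* replicate 1). *Abat*, the enzyme that breaks GABA down, differed by -0.26 (adjusted p = 0.0758). *Slc6a5*, the glycine transporter of Golgi and brain stem neurons, named here after its values were seen, was 9.85 in *M-Smo* replicate 1, while the rest of that group lay at 6.89 to 7.22 and the *G-Smo* group at 6.11 to 6.91. Its difference of -0.97 did not pass (adjusted p = 0.247), nor did the -0.50 found without that tumor (adjusted p = 0.0613).

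The receptors for the 2 peptides were all measured, and of the 8, 1 passed and 7 missed the threshold (median -0.11). *Npy1r*, a receptor of neuropeptide Y, was lower by -0.46 (limma, adjusted p = 0.0427), and missed the threshold without *M-Smo* replicate 1 (adjusted p = 0.0719). *Sstr2*, a somatostatin receptor, differed by 0.19 (adjusted p = 0.150). Genes of forebrain and midbrain GABAergic neurons had a median of -0.10 (-0.08 without the members *Npy* and *Sst*), and of the 17 measured among 19, *Npy* alone was called. *Calb2*, which encodes calretinin, differed by -0.43 (adjusted p = 0.115).

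**Figure D3:**
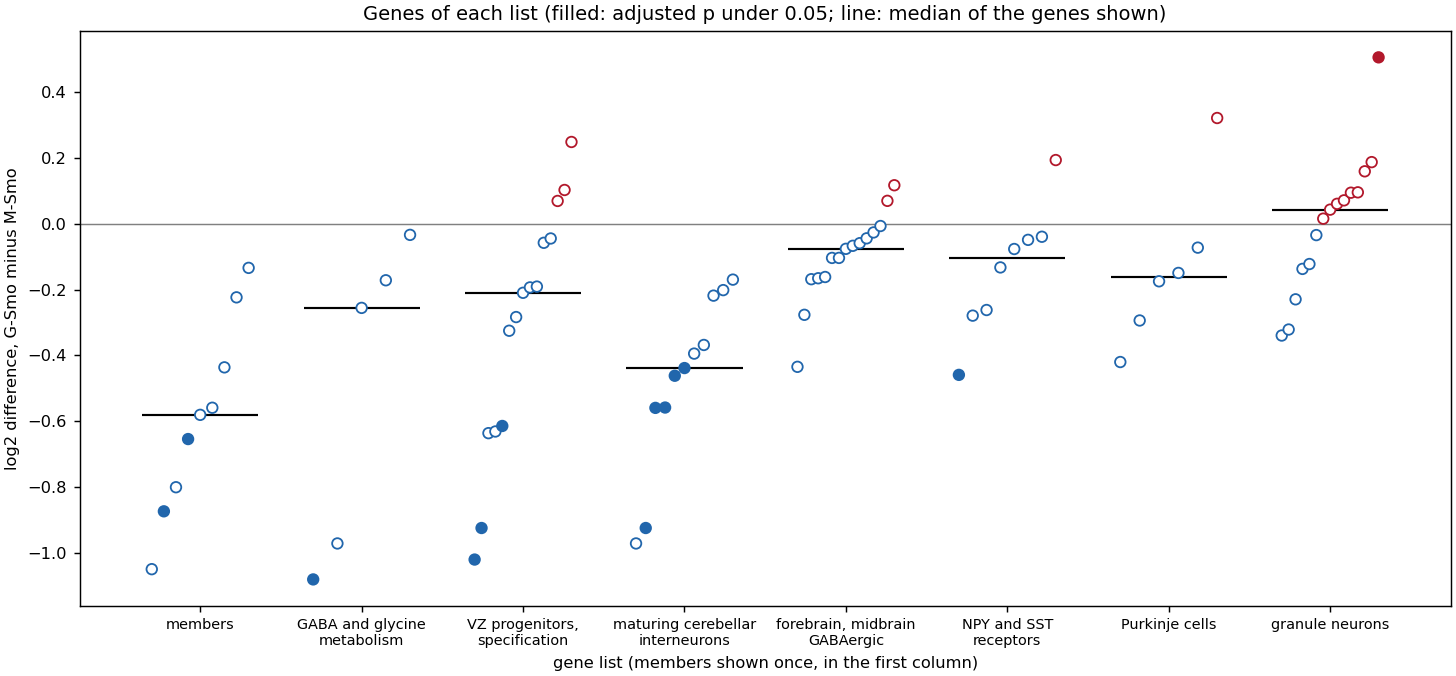
Log2 difference (*G-Smo* minus *M-Smo*) of each measured gene in 8 lists, blue below and red above 0, filled where limma's adjusted p was under 0.05, with a line at the median of the genes shown. The 9 members appear in the first column only, so the medians of the other columns leave them out, and *Tfap2b* and *Slc6a5* stand in 2 columns each.

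Purkinje cells are the other GABAergic neurons of the cerebellum and also arise from the VZ. Of 13 listed genes 10 were measured, 4 of them members, and none passed limma's test in either direction. At an unadjusted p under 0.05, 3 were lower, all of them members (*Gad1*, *Gad2* and *Slc32a1*), and 1 was higher. The median was -0.23 over the 10 and -0.16 over the 6 that are not members. *Foxp2*, a transcription factor of Purkinje cells, differed by 0.32 with every *G-Smo* tumor above every *M-Smo* tumor (limma, adjusted p = 0.0503), and *Ppp1r17*, a phosphatase inhibitor of these cells, by -0.42 (adjusted p = 0.323). The mean of the 6 Purkinje genes that are not members was 8.75 and 8.95 in *G-Smo* replicates 3 and 5, 9.38 to 9.41 in the remaining 4 of that group and 9.19 to 9.50 among *M-Smo* tumors. The same 2 tumors were thus low in Purkinje genes and in the members. They also had the lowest *G-Smo* list means for maturing interneurons (7.38 and 7.38), granule neurons (10.22 and 10.24) and myelin (6.95 and 7.24). The part of this in the members' differences was not tested beyond leaving these 2 tumors out. Of the 6 Purkinje genes that are not members, 4 were lowest of their group in *G-Smo* replicate 3.

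Genes of the granule neuron lineage, to which most of the tumor cells belong, had a median of 0.04 over the 15 measured of 16. Some of them, such as *Gabra6*, are also made by granule neurons that are not tumor cells. *Barhl2*, a homeobox factor of rhombic lip neurons, was higher in *G-Smo* tumors by 0.50 (limma, adjusted p = 0.0115), and none was called lower. At an unadjusted p under 0.05, 2 were lower and 1 was higher. *Zic2*, a zinc finger factor of granule neuron precursors, differed by -0.14 with every *G-Smo* tumor below every *M-Smo* tumor (adjusted p = 0.147). Over the whole list, the list means of the groups overlapped (*G-Smo*, 10.22 to 10.53, and *M-Smo*, 10.26 to 10.40). Of 8 measured genes of unipolar brush cells and glutamatergic nuclei, none passed limma's test (2 lower and 2 higher at an unadjusted p under 0.05, median -0.01), with overlapping list means (*G-Smo*, 7.23 to 7.54, and *M-Smo*, 7.19 to 7.56).

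Genes of other cell types also differed. Of 7 measured myelin genes, all had the lower mean in *G-Smo* tumors and 4 passed (*Mbp*, *Mag*, *Mobp* and *Cldn11*). Their median was -1.16 (-0.95 without *M-Smo* replicate 1), beside -0.58 for the members. The highest *G-Smo* list mean (8.00) lay below the lowest *M-Smo* list mean (8.16). The calls of *Mbp* and *Mag* were lost without *M-Smo* replicate 1 (limma, adjusted p = 0.0669 and 0.0529), while *Cnp* gained one (adjusted p = 0.0417). All 7 were highest of their group in *M-Smo* replicate 1, and 6 were lowest of theirs in *G-Smo* replicate 3. Of 8 astrocyte genes (median -0.34) 4 were called lower (*Gfap*, *Aqp4*, *Aldh1l1* and *Clu*), and every *G-Smo* list mean (9.32 to 9.60) lay below every *M-Smo* list mean (9.60 to 9.95). Of 15 measured genes of brain stem and monoamine neurons (median -0.15) 1 was called lower (*Isl1*). The list mean was 6.54 in *M-Smo* replicate 1, 5.77 to 5.88 in the rest of its group and 5.59 to 5.71 among *G-Smo* tumors. The part of these cell types in the members' differences was not tested. Without *M-Smo* replicate 1 the members' order between genotypes was the same for 9 of 9 genes.

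**Figure D4:**
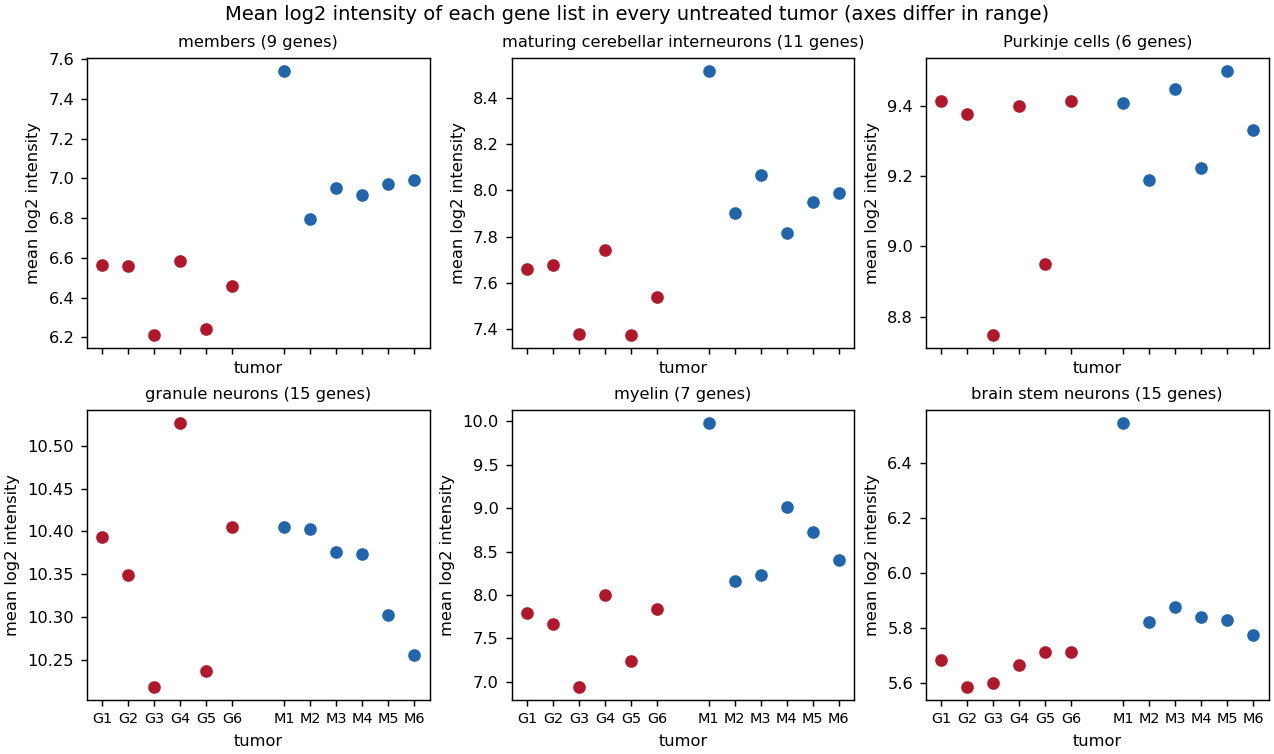
Mean log2 intensity of 6 gene lists in each *G-Smo* tumor (G1 to G6, red) and *M-Smo* tumor (M1 to M6, blue), with members left out of the other lists (axes differ in range). *M-Smo* replicate 1 is highest of its group for the members (7.54), maturing interneurons (8.52), myelin (9.98) and brain stem neurons (6.54). *G-Smo* replicates 3 and 5 are lowest of theirs in every panel except brain stem neurons.

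Sex is not among the labels. *Xist* RNA, made from the silenced X of female cells, was high (log2 intensity at least 12.5) in 5 *G-Smo* and 2 *M-Smo* tumors and low (at most 6.10) in 1 *G-Smo* and 4 *M-Smo* tumors. Among *Xist*-high tumors the 9 members were all lower in the *G-Smo* mean, with a median of -0.77 and *M-Smo* replicate 1 as 1 of only 2 *M-Smo* tumors. The groups did not overlap in 7 of the 9 there, where 7.45% of all probe sets did not. Among *Xist*-low tumors all 9 were lower in the single *G-Smo* tumor, with a median of -0.33, and it lay below every *M-Smo* tumor in 8, where it did so for 22.7% of all probe sets. With sex-linked genes entered as a covariate, the members called were the same 2, *Pax2* (limma, adjusted p = 0.0280) and *Npy* (adjusted p = 0.0407).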

How the data were processed

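RNA of 12 untreated tumors was measured on Affymetrix Mouse Gene 2.1 ST arrays. The deposited table holds a log2 intensity for each probe set and array, which the authors made by robust multi-array averaging (RMA). Their processing notes also name Partek, and versions are not given in the sources used here. RMA gives the arrays a common distribution, and no further normalization or filter was applied. Precision is limited by how many arrays there are. Of 41345 probe sets, 23521 are annotated to 1 gene symbol. Genotypes were compared with limma 3.58.1 (lmFit, eBayes, two-sided) in R 4.3.3, adjusted by Benjamini-Hochberg over the 41345 probe sets at a threshold of 0.05. The methods name a 1-way test per probe set, which was run as an alternative. Figures were drawn in Python 3.11.15 with matplotlib 3.10.9. The steps were tested on simulated data. The 9 members and the 12 other gene lists (the last of sex-linked genes, none of whose 4 measured genes passed limma's test, 3 at an unadjusted p under 0.05) were chosen with earlier results of these data known. The genes named are all members, the genes of each list that passed or else up to 2 with the smallest adjusted p, and the 5 genes of most similar pattern, unless said otherwise. Other settings tried were arrays centred on their medians or quantile normalized, probe sets above the 40th percentile of mean intensity, those with 1 symbol or with distinct values only, limma with trend and robust options or with array weights, the methods' test, a replicate block, a covariate from sex-linked genes, the dimmest probe set of each gene, and each tumor left out. The 12 irradiated arrays were not used.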

Additional observations from a re-analysis of the deposited data

Results flagged for a closer look

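In a group of 6 tumors, a tumor was marked as standing apart when its gap to the nearest other tumor, divided by the range of the group, was above Dixon's 95% critical value. Chance marks about 1 in 20 groups, and here 10 of 74 groups over 37 genes were marked, 4 of them through *M-Smo* replicate 1. Among the members 2 of 18 groups were marked, both through that tumor. Its *Sst* value of 9.61, where the rest of the group lay at 7.13 to 7.31, gave a ratio of 0.928, and its *Gad2* value of 9.01, against 7.96 to 8.19, gave 0.777. The same tumor was high for *Abat* (10.9 against 10.5 to 10.7, ratio 0.640) and *Cldn11* (10.7 against 9.19 to 9.68, ratio 0.668). *Slc6a5*, where that tumor had 9.85 against 6.89 to 7.22 in the rest of its group, was not among the 37 genes.

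*G-Smo* replicate 3 was low for *Tfap2a* (5.58 against 6.26 to 6.55, ratio 0.703). *G-Smo* replicate 4 was high for *Kit* (8.86 against 8.50 to 8.60, ratio 0.722), which is the end nearer to the *M-Smo* tumors. Single tumors were also high for *Lhx6* (*M-Smo* replicate 3, ratio 0.660), *Sstr2* (*G-Smo* replicate 5, ratio 0.628), *Zic2* (*M-Smo* replicate 3, ratio 0.657) and *Aldh1l1* (*M-Smo* replicate 6, ratio 0.648).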

How the results depend on the processing

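Every member tested had the lower mean in *G-Smo* tumors under every setting run (9 of 9, or 7 of 7 under the filter on dim probe sets). The count past the threshold, 2 as reported, ran from 1 (without *G-Smo* replicate 2, 5 or 6) to 3 (without *G-Smo* replicate 3 or *M-Smo* replicate 1) with 1 tumor left out, while the median ran from -0.63 to -0.48 and the count without overlap from 4 to 5. *G-Smo* tumors that shared a number with an *M-Smo* tumor did not deviate together (correlations -0.14 to 0.11, and 1 of 6 *G-Smo* tumors was most like its own number). The labels do not say whether equal numbers shared a litter or handling, and these correlations cannot decide it. The fit with the replicate block called 1 member, *Pax2* (limma, adjusted p = 0.0362), and 113 probe sets in all against 1057. Among settings chosen after seeing the data, leaving out *G-Smo* replicates 3 and 5 also gave 1 member, with 113 probe sets called in all. The *Xist*-high tumors alone gave 0 by limma, with 7 members not overlapping and 20 probe sets called in all. Among the *Xist*-low tumors alone, with a lone *G-Smo* tumor beside 4 *M-Smo* tumors, 8 members did not overlap and the median was -0.33. Of all probe sets, 7.45% and 22.7% did not overlap in these small groups. Over all probe sets leaving out *G-Smo* replicate 2, 3, 5 or 6 moved the 1057 calls to 609, 503, 367 and 452, leaving out *M-Smo* replicate 5 or 6 to 676 and 596, the covariate from sex-linked genes to 420 and the filter on dim probe sets to 1881, which left *Ptf1a* and *Pax8* untested. *Pax2* kept its call in 24 of 26 other settings and *Npy* in 19. *Gad2* passed in 4. The lowest-mean probe set replaced *Ptf1a* (-0.07) and *Slc32a1* (-0.06). The causes were not tested.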
